A study of Mus musculus with 6 samples.

Results

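The genes described here are the AP-1, EGR and NR4A families together with other immediate early genes, 36 in all, measured in mouse natural killer (NK) cells. They were taken by symbol from a fixed list, each through probe sets that the platform's annotation assigns to exactly 1 gene symbol. All 36 were found among the 19943 genes measured, each with 1 probe set. Total RNA of 6 cell preparations had been hybridised to Affymetrix arrays, 3 of IL-18 generated and 3 of unstimulated NK cells. IL-18 generated cells came from NK1.1 isolated cells cultured overnight with IL-2 (300 IU) and IL-18 (25 ng/ml) and were sorted as NK1.1 positive, CD3 negative, CD11b negative, c-kit positive live cells. Unstimulated cells were sorted as NK1.1 positive, CD3 negative, CD11b positive, c-kit negative live cells. The labels give no strain, age or sex of the mice, and do not say whether the unstimulated cells were cultured or had IL-2. The effects of IL-18, IL-2, culture and gate cannot be told apart here.

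Values are log2 expression with each gene's median over the 6 arrays set to 0, so that differences between arrays can be read but levels cannot. The base of the logarithm is not stated and base 2 was assumed, so each fold holds only under that base, while directions and p-values do not depend on it (apart from thresholds of 2-fold). Because of this centring, when the 2 groups do not overlap, the nearest arrays of each group lie at equal distances on either side of 0. The 3 preparations of a group are called independent in the design text, and p-values cover the variation among 6 arrays alone, a number that limits the precision. Array medians over all genes lay between -0.025 and 0.039. The genes of markers that differ between the gates moved with them, with log2 changes of 2.79 ± 0.13 for Kit, which encodes c-kit, and -5.32 ± 0.11 for Itgam, which encodes CD11b (mean ± SE; each change in the text is of 3 against 3 arrays). Genes of markers that the gates share changed as well, Klrb1c, which encodes NK1.1, by -2.03 ± 0.11, and Cd3d, Cd3e and Cd3g by 1.11, 1.26 and 1.60. All 12 measured markers of NK cells fell in the IL-18 generated cells, where 16.7% of all genes tested fell. Because values are centred, the label of the cells can be checked here for differences only and not for presence.

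Immediate early genes are transcribed within minutes of a stimulus, from factors already present in the cell, and most of their transcripts are short-lived. Fos and Jun proteins pair through leucine zippers to form AP-1, which binds DNA at a shared core site. BATF factors pair with Jun proteins, and with IRF4 or IRF8 they occupy composite sites in lymphocytes. EGR zinc finger factors and NR4A orphan nuclear receptors are induced by antigen and cytokine receptors in lymphocytes, and NR4A proteins are known for restraining effector genes. Others of the set act after transcription, as ZFP36 proteins do by destroying cytokine mRNAs, or brake signalling, as the RGS proteins do at G protein-coupled receptors.

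In the IL-18 generated cells the set moved in both directions, also within families. Fos and Fosb, all of the NR4A genes, Zfp36, Klf10, Rgs2 and Ier2 were lower, while Fosl1, Batf, Batf3, the small Maf genes, Crem, Rgs1 and Gadd45b were higher. At an adjusted p below 0.05 in limma, 12 of the 36 genes rose, 16 fell and 8 did not pass, which is 77.8% of them called, where 36.4% of all genes tested were called. Calls in a single direction made up 19.7% (higher) and 16.7% (lower) of all genes. By at least 2-fold, 5 rose (3.62% of all genes did) and 8 fell (3.24% of all genes did), and these 13 genes compare with 6.86% of all genes in either direction. The median change of the 36 was -0.26, beside -0.06 over all genes, and their median absolute change was 0.79 beside 0.18. Arrays of the groups did not overlap for 29 of the 36, or 80.6%, and for 48.6% of all genes. Against a log2 change of 1, limma's treat test called 2 of the set higher and 4 lower, and over all genes 1.57% higher and 1.64% lower.

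**Figure D1:**
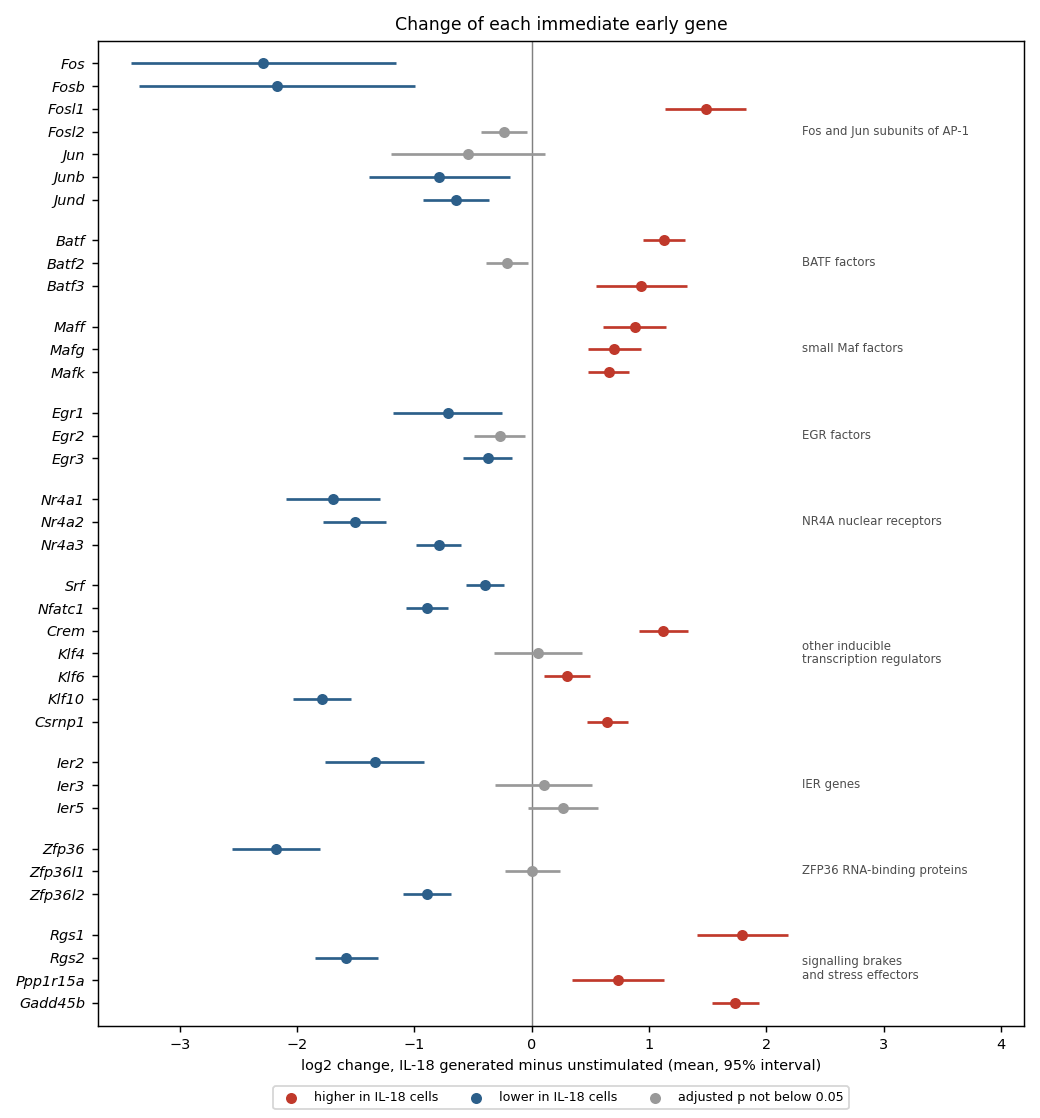
Log2 change between IL-18 generated and unstimulated NK cells (horizontal axis) for each of the 36 genes, grouped by family, with points for the mean difference of 3 against 3 arrays and lines for the 95% interval from limma. Red genes rose (12), blue genes fell (16) and grey genes did not pass an adjusted p of 0.05 (8). The intervals of Fos and Fosb are the widest of the set.

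The Fos and Jun genes encode the partners that make up AP-1. Fos stood at -0.24, -0.65 and -0.55 in IL-18 replicates 1, 2 and 3, and at 2.75, 0.24 and 2.44 in unstimulated replicates 1, 2 and 3. Unstimulated replicates 1 and 3 were high, whereas unstimulated replicate 2 lay 0.48 above the nearest IL-18 array. The log2 change of Fos was -2.29 ± 0.51 (95% interval -3.42 to -1.16, limma adjusted p 0.00467). Fosb, a close paralog, had the same shape, with -0.16, -0.47 and -0.50 in the IL-18 arrays against 2.77, 0.16 and 2.46 in the unstimulated arrays. The change of Fosb was -2.17 ± 0.53 (limma adjusted p 0.00804). With limma's robust variance estimate, which lets single genes keep a large variance, neither call held. The limma adjusted p was then 0.0914 for Fos and 0.114 for Fosb, the highest over 14 alternatives, whose lowest were 7.03e-07 and 6.1e-07.

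Fosl1, which encodes Fra-1, a Fos protein without the strong activation domain of c-Fos, went the other way. Its values were 1.22, 0.54 and 0.76 in the IL-18 arrays and -0.54, -0.55 and -0.84 in the unstimulated ones. The groups were well apart and the rise was 1.48 ± 0.16, or 2.80-fold (limma adjusted p 3.17e-05). Fosl2, which encodes the related Fra-2, changed by -0.24 ± 0.09 (95% interval -0.43 to -0.04) but missed the threshold (limma adjusted p 0.056). It passed with array weights and without IL-18 replicate 3, its limma adjusted p running from 0.0198 to 0.186 over 14 alternatives.

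Of the Jun genes, Jund had the most even separation. It stood between -0.26 and -0.14 in the IL-18 arrays and at 0.71, 0.14 and 0.47 in the unstimulated ones, a change of -0.65 ± 0.13 (limma adjusted p 0.00213). Junb was at 0.05, -0.05 and -0.14 in the IL-18 arrays and at 1.29, -0.06 and 1.00 in the unstimulated arrays, so unstimulated replicate 2 lay among the IL-18 arrays. Its change was -0.79 ± 0.27, with a limma adjusted p of 0.0427. That call ended without any 1 of IL-18 replicates 1, 2 and 3 or of unstimulated replicates 1 and 3, with changes from -0.84 to -0.51, and also with the robust estimate, quantile normalization and centring of arrays. Without unstimulated replicate 2 the change of Junb was -1.19, and over 14 alternatives its limma adjusted p ran from 3.06e-05 to 0.174. Jun itself, at 0.03, -0.31 and -0.03 against 1.01, -0.43 and 0.75, did not pass (-0.55 ± 0.29, 95% interval -1.20 to 0.11, limma adjusted p 0.179). Its lowest value of all 6 arrays was in unstimulated replicate 2. Without that array the change of Jun was -0.98 with a limma adjusted p of 0.000218, it also passed with array weights, and over 14 alternatives the adjusted p ran from 0.000218 to 0.542.

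**Figure D2:**
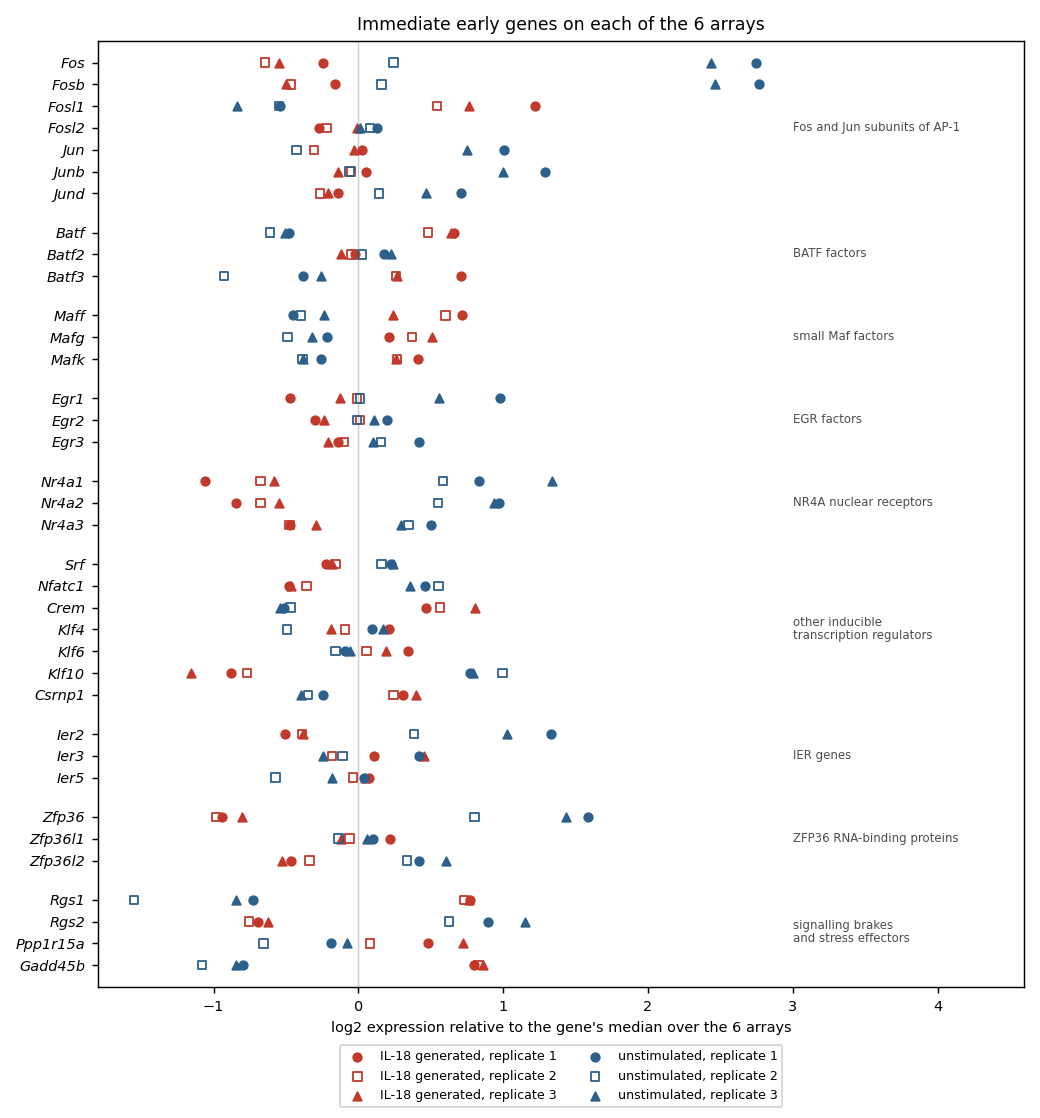
Value of each gene on each of the 6 arrays, in log2 units relative to the gene's median (horizontal axis), with IL-18 generated preparations in red and unstimulated ones in blue. Open squares are replicate 2 of each group. For Fos and Fosb the blue square (0.24 and 0.16) lies near the red points, far from the other blue points (2.44 to 2.77). For Batf, Nr4a2, Klf10 and Gadd45b the 3 blue points lie closer together, with the blue square of Nr4a2 at 0.55.

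BATF factors have no activation domain of their own and depend on their partners. Batf was at 0.66, 0.48 and 0.64 in the IL-18 arrays and at -0.48, -0.61 and -0.51 in the unstimulated ones. The arrays of each group were close together, and the rise was 1.13 ± 0.08, or 2.18-fold (limma adjusted p 2.14e-06). Batf3, known from dendritic cell development and from activated lymphocytes, rose by 0.93 ± 0.17 (limma adjusted p 0.00159). Its values were 0.71, 0.26 and 0.27 against -0.38, -0.93 and -0.26, the lowest again in unstimulated replicate 2. Batf2 changed by -0.21 ± 0.08 (95% interval -0.39 to -0.03) but missed the threshold (limma adjusted p 0.0672); it passed with array weights and without unstimulated replicate 2, the adjusted p running from 0.0201 to 0.196 over 14 alternatives. Irf8, the gene of a BATF partner, fell by 0.76 on the log2 scale, and Irf4 changed by 0.02 ± 0.13 without passing. Both genes are given because they encode the partners, and they were chosen with their values known.

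The small Maf genes encode zipper proteins without an activation domain, which pair with NRF and BACH factors. All of them rose, Maff by 0.88 ± 0.12, Mafg by 0.70 ± 0.10 and Mafk by 0.66 ± 0.08, with a highest limma adjusted p of 0.000265. Maff stood at 0.71, 0.60 and 0.24 in the IL-18 arrays and at -0.45, -0.40 and -0.24 in the unstimulated arrays. For none of these genes did the arrays of the groups overlap.

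Of the EGR genes, whose products bind GC-rich sites, 2 fell and 1 did not pass. Egr1 was at -0.47, -0.01 and -0.13 in the IL-18 arrays and at 0.98, 0.01 and 0.56 in the unstimulated ones, and only 0.02 separated the nearest arrays. Its change was -0.72 ± 0.21 (95% interval -1.18 to -0.26, limma adjusted p 0.0201). That call ended without IL-18 replicate 1 (-0.58), unstimulated replicate 1 (-0.49) or unstimulated replicate 3 (-0.70), and with the robust estimate (limma adjusted p 0.07). The adjusted p of Egr1 ran from 0.00109 to 0.0743 over 14 alternatives. Egr3, induced with Egr2 by antigen receptors through NFAT, changed by -0.38 ± 0.09 (limma adjusted p 0.00994), with -0.14, -0.10 and -0.21 against 0.42, 0.15 and 0.10. Egr2 changed by -0.27 ± 0.10 (95% interval -0.49 to -0.06) and did not pass, at a limma adjusted p of 0.0517. It passed with the robust estimate and without IL-18 replicate 2 or unstimulated replicate 2, the adjusted p running from 0.0168 to 0.172 over 14 alternatives. Nab2, which encodes a corepressor that binds EGR proteins and is itself induced by them, fell by 1.28 on the log2 scale with an SE of 0.08.

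NR4A receptors need no known ligand, so that their amount largely sets their activity. Nr4a1, which encodes Nur77, stood at -1.06, -0.68 and -0.58 in the IL-18 arrays and at 0.83, 0.58 and 1.34 in the unstimulated ones. Each unstimulated array was above each IL-18 array by at least 1.17, and the change was -1.69 ± 0.18, a 3.23-fold difference (limma adjusted p 3.51e-05). Nr4a2 was at -0.84, -0.68 and -0.55 against 0.97, 0.55 and 0.94, with a change of -1.51 ± 0.12 (limma adjusted p 4.59e-06). Nr4a3 was at -0.47, -0.47 and -0.29 against 0.50, 0.35 and 0.29 and changed by less, -0.79 ± 0.09 (limma adjusted p 4.25e-05). Unstimulated replicate 2, which was close to the IL-18 arrays for Fos, lay nearer the other unstimulated arrays for all of the NR4A genes. It was still the lowest of its group for Nr4a1 and Nr4a2.

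Because the NR4A genes fell together, the 250 bases before their RefSeq start sites (build GRCm38.p6) are printed here, 5′ to 3′ on the strand of the gene. Capitals mark TGACG, the core of the cAMP response element bound by CREB and ATF factors, or its reverse complement. This short motif was searched on both strands, and the full element TGACGTCA contains it. Each of the NR4A promoters held 4 copies. Of the 32851 RefSeq promoters of this length, 17.8% held at least 1 copy and 0.137% held at least 4. The cutoff of 4 was read from the NR4A promoters themselves, so this share does not test an excess. The promoter of Fos, with 2 copies (3.9% of promoters held at least 2), is shown for comparison.
Nr4a1, chr15:101266596-101266845, plus strand: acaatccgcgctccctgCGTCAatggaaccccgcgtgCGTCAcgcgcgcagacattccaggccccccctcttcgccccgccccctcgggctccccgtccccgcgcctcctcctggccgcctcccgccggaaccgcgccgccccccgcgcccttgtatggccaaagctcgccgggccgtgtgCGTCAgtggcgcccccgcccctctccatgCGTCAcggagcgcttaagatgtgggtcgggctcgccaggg
Nr4a2, chr2:57124004-57124253, minus strand: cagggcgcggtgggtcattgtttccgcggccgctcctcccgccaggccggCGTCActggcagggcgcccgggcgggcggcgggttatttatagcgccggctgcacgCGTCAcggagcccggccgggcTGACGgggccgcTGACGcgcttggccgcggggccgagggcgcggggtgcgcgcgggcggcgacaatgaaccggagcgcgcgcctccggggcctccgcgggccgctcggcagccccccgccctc
Nr4a3, chr4:48045055-48045304, plus strand: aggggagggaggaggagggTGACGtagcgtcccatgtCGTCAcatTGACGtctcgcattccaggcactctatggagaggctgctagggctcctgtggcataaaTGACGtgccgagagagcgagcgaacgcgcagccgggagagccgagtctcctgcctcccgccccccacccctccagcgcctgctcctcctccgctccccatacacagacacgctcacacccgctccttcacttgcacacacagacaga
Fos, chr12:85473640-85473889, plus strand: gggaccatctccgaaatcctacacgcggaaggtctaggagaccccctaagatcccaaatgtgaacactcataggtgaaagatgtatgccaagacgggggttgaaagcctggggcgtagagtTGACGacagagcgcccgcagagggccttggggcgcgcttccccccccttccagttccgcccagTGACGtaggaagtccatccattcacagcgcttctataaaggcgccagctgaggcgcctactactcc

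In Nr4a1 the copies began 233, 213, 69 and 40 bases before the start site, and in Nr4a3 all 4 lay between 231 and 147 bases before it. The Fos copies began 129 and 66 bases before the start. Promoters were listed for 26 of the 36 genes, and TGACG occurred in at least 1 listed promoter of 16 of them. It was found among genes that rose (Batf, Mafg, Mafk, Ppp1r15a) and genes that fell (Fosb, Junb, Rgs2). This count is per gene, with 1 listed promoter for 23 of the 26, while 17.8% is a share of single promoters. The full element TGACGTCA, in 1.55% of all promoters, occurred in Maff and Ppp1r15a, and both of these rose. The AP-1 site TGACTCA, in 4.46% of all promoters, occurred in Csrnp1 alone among the 26. The NR4A site AAAGGTCA, in 1.34% of all promoters, occurred in none of the 26. A match describes letters in this window and not the binding of a factor.

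The remaining regulators of transcription moved both ways. Srf encodes serum response factor, which with ELK and MRTF cofactors switches on Fos, Egr1 and other early genes. It fell by a small but even amount, from 0.23, 0.16 and 0.24 in the unstimulated arrays to -0.22, -0.16 and -0.19 in the IL-18 arrays (change -0.40 ± 0.07, limma adjusted p 0.00124). Mrtfa, the gene of an SRF coactivator, changed by -1.17 ± 0.07. Nfatc1, a calcium-controlled factor that cooperates with AP-1, changed by -0.89 ± 0.08, from 0.46, 0.55 and 0.36 to -0.48, -0.36 and -0.47 (limma adjusted p 1.04e-05). Crem, which gives rise to activators and to the inducible cAMP repressor ICER, rose by 1.12 ± 0.09, or 2.18-fold. It was at 0.47, 0.56 and 0.81 in the IL-18 arrays and between -0.54 and -0.47 in the unstimulated ones, which were 0.08 apart. Separate Crem isoforms cannot be read from its 1 probe set.

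The CArG box, the site of SRF, was found in listed promoters of Egr2, Srf and Zfp36, and in 1.47% of all promoters of this length. It was searched on both strands and does not overlap TGACG. Egr1 was among the 10 genes of the set without a listed promoter. The Fos promoter held no box in these 250 bases, and bases further upstream were not searched. The promoters of Srf, which holds 2 boxes, and of Zfp36, which fell furthest among the ZFP36 genes, are printed with the boxes in capitals.
Srf, chr17:46556163-46556412, minus strand: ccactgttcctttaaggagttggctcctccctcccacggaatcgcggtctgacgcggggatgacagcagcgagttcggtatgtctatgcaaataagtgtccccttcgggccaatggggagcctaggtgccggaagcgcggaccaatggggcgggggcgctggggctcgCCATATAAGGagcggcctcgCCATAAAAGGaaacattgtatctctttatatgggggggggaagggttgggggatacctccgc
Zfp36, chr7:28379229-28379478, minus strand: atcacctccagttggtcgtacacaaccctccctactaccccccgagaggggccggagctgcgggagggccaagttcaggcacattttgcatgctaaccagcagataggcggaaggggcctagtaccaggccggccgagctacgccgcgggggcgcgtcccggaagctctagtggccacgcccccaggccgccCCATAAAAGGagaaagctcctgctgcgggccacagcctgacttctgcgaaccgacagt

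The KLF zinc finger genes differed from each other. Klf10, first described as a gene induced by TGF-beta, was at -0.88, -0.77 and -1.16 in the IL-18 arrays and at 0.77, 1.00 and 0.79 in the unstimulated ones. With 1.54 between the nearest arrays, its change of -1.79 ± 0.11, a 3.45-fold difference, had a limma adjusted p of 7.79e-07. Klf6 rose by 0.30 ± 0.09 (limma adjusted p 0.0226), a call that ended without IL-18 replicate 1 (0.23) or 3 (0.30) or unstimulated replicate 1 (0.31). Over 14 alternatives the adjusted p of Klf6 ran from 0.0115 to 0.0981. Klf4, which slows the cycle of T cells, changed by 0.05 ± 0.17 (95% interval -0.32 to 0.43) and did not pass (limma adjusted p 0.83). Csrnp1, a nuclear protein gene first found as induced by axin, rose by 0.65 ± 0.08, with 0.31, 0.24 and 0.40 against -0.24, -0.35 and -0.39 (limma adjusted p 9.54e-05).

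The IER genes encode small early-response proteins. Ier2 stood between -0.51 and -0.38 in the IL-18 arrays and at 1.33, 0.38 and 1.03 in the unstimulated arrays, with unstimulated replicate 2 the lowest of its group but still 0.77 above the nearest IL-18 array. Its change was -1.34 ± 0.19 (limma adjusted p 0.000257). Ier3, an NF-kB target that protects from cell death, changed by 0.10 ± 0.19 (95% interval -0.31 to 0.52, limma adjusted p 0.695). Ier5 changed by 0.27 ± 0.13 (95% interval -0.03 to 0.56, limma adjusted p 0.149), and passed without unstimulated replicate 1, with a change of 0.40 (adjusted p from 0.0307 to 0.386 over 14 alternatives). Its groups overlapped, with 0.07, -0.04 and 0.04 against 0.04, -0.57 and -0.18.

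ZFP36 proteins bind AU-rich elements in mRNAs of cytokines such as TNF and bring about their decay. Zfp36, which encodes tristetraprolin, was at -0.94, -0.98 and -0.80 in the IL-18 arrays and at 1.59, 0.80 and 1.43 in the unstimulated ones. The lowest unstimulated array was 1.60 above the highest IL-18 array, and the change was -2.18 ± 0.17, a 4.54-fold difference (limma adjusted p 3.68e-06). Zfp36l2 fell as well, from 0.42, 0.34 and 0.60 to -0.46, -0.34 and -0.53 (change -0.89 ± 0.09, limma adjusted p 2.64e-05). Zfp36l1, known with Zfp36l2 for holding developing lymphocytes in quiescence, changed by 0.01 ± 0.11 (95% interval -0.23 to 0.24, limma adjusted p 0.969).

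Both RGS genes encode GTPase activators that shorten signals of G protein-coupled receptors such as chemokine receptors, and they moved in opposite directions. Rgs1 rose by 1.80 ± 0.18, or 3.47-fold (limma adjusted p 1.89e-05). It was at 0.77, 0.73 and 0.77 in the IL-18 arrays, within 0.05 of each other, and at -0.73, -1.55 and -0.84 in the unstimulated ones. Rgs2 was at -0.69, -0.76 and -0.62 against 0.90, 0.62 and 1.15 and changed by -1.58 ± 0.12 (limma adjusted p 3.12e-06). Gadd45b, which activates p38 and JNK signalling through a MAP kinase kinase kinase, rose by 1.74 ± 0.09, or 3.33-fold (limma adjusted p 2.47e-07). Its values were 0.80, 0.83 and 0.86 against -0.80, -1.08 and -0.85. Ppp1r15a, which encodes GADD34, the phosphatase subunit that reverses the phosphorylation of eIF2 alpha, rose by 0.74 ± 0.18 (limma adjusted p 0.00743), with 0.48, 0.08 and 0.73 against -0.19, -0.66 and -0.08.

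The unstimulated arrays differed from each other in part of the set. Over all 19943 genes ordered by the SD among the 3 unstimulated arrays, Fosb was at rank 6 (SD 1.43) and Fos at rank 8 (SD 1.37). Jun (rank 39), Junb (48), Ier2 (122), Egr1 (123), Rgs1 (151) and Zfp36 (181) were also among the 199 genes of the top 1%, where 8 of the 36 genes lay. In the IL-18 arrays the SD was 0.21 for Fos and 0.19 for Fosb. Of the 16 genes that fell, 15 had a larger SD among unstimulated than among IL-18 arrays, as had 3 of the 12 that rose. Over the whole set 23 of 36 did, or 63.9%, beside 62.7% over all genes. Of all genes that fell 61.2% did, and of all that rose 60.4%. Others of the set were even across the unstimulated arrays, such as Crem (SD 0.04), Srf (SD 0.04) and Batf (SD 0.07), against a median of 0.11 over all genes.

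**Figure D3:**
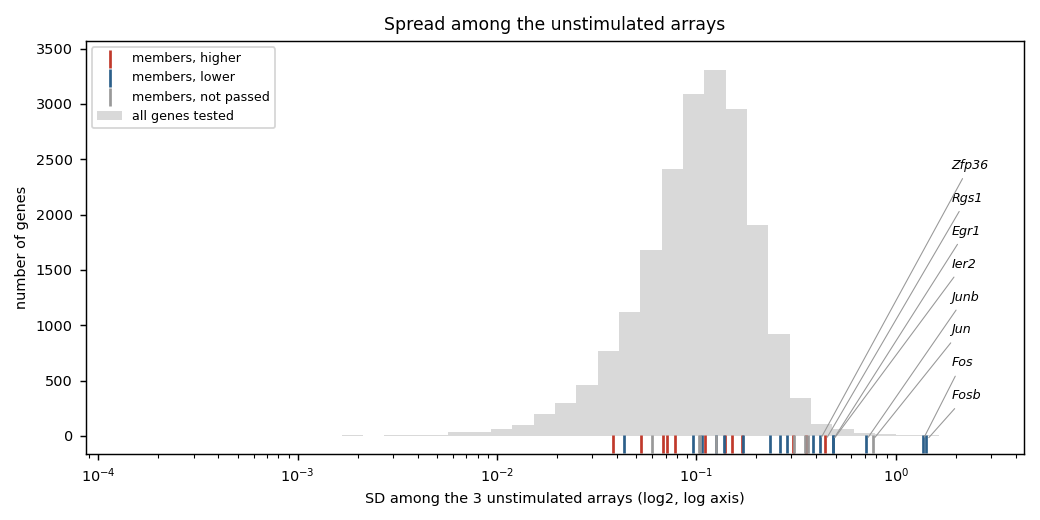
Number of genes (grey bars, vertical axis) by the SD among the 3 unstimulated arrays (log2 units, on a log axis), with ticks under the bars for the 36 genes, coloured by call. Fos and Fosb lie at the far right, with SDs of 1.37 and 1.43, and the genes that rose lie mostly within the bulk of all genes.

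The array that stood apart was unstimulated replicate 2. It was the lowest of the unstimulated arrays for 26 of the 36 genes (72.2%), compared with 42.5% of all genes. Set against unstimulated replicate 1 alone, the mean of the IL-18 arrays differed by -3.22 for Fos and -3.14 for Fosb. Against unstimulated replicate 2 alone the differences were -0.72 and -0.53, and for Jun and Junb 0.33 and 0.01. Klf10 differed by -1.70, -1.93 and -1.72 from unstimulated replicates 1, 2 and 3, and Nr4a2 by -1.66, -1.24 and -1.63. In the same order Nr4a1 differed by -1.61, -1.36 and -2.11. The fall of Fos and Fosb thus varied in size with the unstimulated array, and that of Klf10, Nr4a2 and Nr4a1 varied less. Without unstimulated replicate 2, 19 genes of the set fell and 12 rose, and calls over all genes went up too, to 22.1% lower and 20.9% higher.

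**Figure D4:**
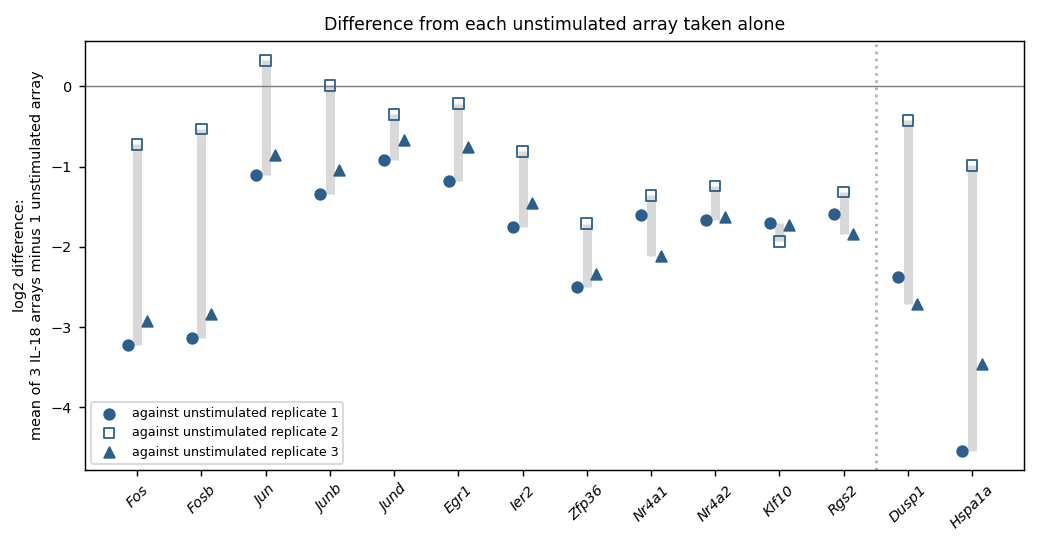
Log2 difference between the mean of the 3 IL-18 arrays and each unstimulated array taken alone (vertical axis), for 12 genes of the set and, right of the dotted line, Dusp1 and Hspa1a. Grey bars span the 3 differences. Open squares (unstimulated replicate 2) lie nearest 0, or above it for Jun and Junb, except for Klf10, where the 3 differences are close together.

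Among other transcripts known to rise quickly with stress or handling, Hspa1a and Dusp1 varied with Fos. The heat shock gene Hspa1a was at 3.99, 0.43 and 2.90 in unstimulated replicates 1, 2 and 3 and between -0.69 and -0.43 in the IL-18 arrays, and its SD among the unstimulated arrays was at rank 4 of all genes. Dusp1, an early gene for a MAP kinase phosphatase, was at 2.08, 0.13 and 2.42 (rank 11) and between -0.44 and -0.13 in the IL-18 arrays. Of the 7 measured heat shock genes, 3 fell, 1 rose and 3 did not pass, where 16.7% of all genes fell and 19.7% rose. The mean of this list was 0.82 and 0.56 in unstimulated replicates 1 and 3, was -0.00011 in replicate 2, and ran from -0.23 to -0.14 in the IL-18 arrays. That mean includes Hspa1a, which had the largest SD of the list among the unstimulated arrays. Hspa8 was at 0.08, 0.01 and 0.12 and Bag3 at 0.31, 0.17 and 0.31 in unstimulated replicates 1, 2 and 3. All 7 genes were lowest in replicate 2 among the unstimulated arrays, as were 42.5% of all genes. Handling of the cells before lysis was not tested as a source.

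Markers of other cells moved with the groups too. All 12 monocyte and macrophage markers fell, their mean lying from -1.42 to -1.28 in the IL-18 arrays and from 1.27 to 1.82 in the unstimulated arrays, and all 13 neutrophil markers fell, from -1.17 to -0.98 against 1.096 to 2.23. The largest falls of these lists were those of Lyz2 (-7.16 ± 0.15) and Ngp (-5.66 ± 0.32). Of 9 measured B cell markers 7 fell (means -0.28 to -0.15 against 0.09 to 0.42), and of 10 T cell markers 4 rose and 1 fell (means 0.09 to 0.35 against -0.19 to -0.02). Over all genes 19.7% rose and 16.7% fell. Which markers are near absence cannot be read from centred values. Myeloid cells also express Fos, Zfp36, Klf4 and Nr4a1, and the part of such cells in the changes was not tested. In bulk RNA, fewer cells of a type and less RNA per cell cannot be told apart. The marker lists differed in how they varied among the unstimulated arrays. Monocyte and macrophage markers had means of 1.32, 1.27 and 1.82 in unstimulated replicates 1, 2 and 3, and 9 of the 12 were lowest in replicate 2. Fos, Fosb, Zfp36, Klf4 and Nr4a1 were lowest in replicate 2 as well. All 12 monocyte and macrophage markers were highest in replicate 3, as were Klf4 and Nr4a1. Fos, Fosb and Zfp36 were highest in replicate 1. Neutrophil markers had means of 1.096, 2.23 and 1.16, with 12 of the 13 highest in replicate 2. All 12 NK cell markers were highest in replicate 2, with means of 0.63, 0.91 and 0.68.

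Partners of the set were read from lists by role. Of 17 measured other bZIP factors that pair with AP-1 or Maf proteins, 10 rose, 2 fell and 5 did not pass. Over all genes 19.7% rose and 16.7% fell. Atf3, an early stress factor, rose by 1.42 ± 0.21 and Nfe2l1, which induces proteasome genes, by 1.38 ± 0.09. The falls were those of Bach1 (-0.45 ± 0.09), a repressor of haem oxygenase, and Nfe2l2 (-0.42 ± 0.08), the NRF2 gene of the oxidative stress response. The median over this list was 0.34. Of 14 cofactors and upstream factors of SRF, EGR, NFAT, BATF and CREB proteins, 8 fell and 6 did not pass. Their median was -0.33, Nab2 and Mrtfa falling most. At an unadjusted limma p below 0.05, 9 of these 14 passed in either direction, or 64.3%, beside 44.9% of all genes.

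Of 22 other immediate early genes, 6 rose, 9 fell and 7 did not pass, where 19.7% of all genes rose and 16.7% fell. Their median was -0.19. Myc, a driver of growth genes, rose by 1.77 ± 0.12 and Ifrd1 by 1.59 ± 0.10. Dusp1 had a change of -1.84 ± 0.46 and Mcl1, a survival factor of the BCL2 family, of -1.07 ± 0.10. Without unstimulated replicate 1, 5 of this list fell, and with quantile normalization or centring of arrays 6 rose and 6 fell. Of 16 genes known in lymphocytes as targets of AP-1, NFAT or EGR factors, 10 rose, 4 fell and 2 did not pass. Their median was 0.57. Il2ra, a receptor chain for IL-2, rose by 5.32 ± 0.11 and Csf2, the GM-CSF gene, by 4.51 ± 0.17. The chemokine gene Ccl4 changed by -1.84 ± 0.19 and Fasl, the ligand of the death receptor Fas, by -1.02 ± 0.14. The changes given here for other bZIP factors, other early genes and targets all passed limma's test, with a highest adjusted p of 0.00928.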

How the data were processed

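The table used holds the authors' deposited log2 values of 28815 probe sets on 6 arrays; the sources used here do not state a log base, and base 2 was assumed. Each probe set is centred on its median over the 6 arrays (largest departure 5e-07), and a probe set spans up to 7.77, more than the 4.82 that log10 values of a 16-bit scanner could span but within the 11.1 of natural log values, so the range leaves base 2 and the natural base undecided. The sources used here give no method of summarization or normalization, and no further one was applied. Of the probe sets, 21788 carry exactly 1 gene symbol in the platform's annotation, giving 19943 genes, each the mean of its probe sets. The contrast of 3 against 3 arrays was fitted in limma 3.58.1 under R 4.3.3 (lmFit, eBayes, no covariate, two-sided), with Benjamini-Hochberg adjustment over all genes and calls at an adjusted p below 0.05. The procedure was tested on simulated data with independent noise on each array, which hold no array that departs for many genes together. Every gene of the set is named. In the lists of partners, other early genes and targets, up to 2 genes with the largest rise and 2 with the largest fall among those that passed are named. Marker lists are given mostly as counts and means. The members and lists were chosen with earlier results of these data known. Promoters come from RefSeq (GRCm38.p6) and were matched by symbol. Tables used Python 3.11.15 with pandas 2.3.3, and figures matplotlib 3.10.9. Alternatives were robust variances, array weights, quantile normalization, centring of arrays, other summaries of probe sets, the replicate number as a block, treat, and leaving out each array. The planned filter on dim genes and the intensity trend were not run, since centred values hold no level.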

Additional observations from a re-analysis of the deposited data

How the results depend on the processing

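Of the 36 genes, 23 kept their direction and their side of the threshold under all 14 alternatives. Since each of the 36 has 1 probe set, the other summaries of probe sets among the 14 left their values unchanged. Those alternatives could alter only the SE and the adjusted p. The number of genes of the set that rose by the test ran from 11 to 12 and the number that fell from 14 to 19 when each array was left out in turn; treat against a log2 change of 1 called 2 and 4. Signs turned for 3 genes that did not pass: Klf4 was -0.032 with array weights and ran from -0.16 to 0.18 over arrays left out, Zfp36l1 was -0.019 with array weights and ran from -0.097 to 0.072, and Ier3 ran from -0.060 to 0.30. Among cofactors and upstream factors, 1 gene rose with quantile normalization and 1 with centring of arrays, and between 0 and 1 when each array was left out. Of the other immediate early genes, between 5 and 10 fell when each array was left out. With the replicate number as a block, 12 genes of the set rose and 17 fell, Jun being added (adjusted p 0.0198 in limma). Of all genes 36.5% were called with that block. Deviations of same-numbered arrays from their group means correlated at 0.24, 0.01 and -0.02 over all genes, and at 0.24, 0.20 and -0.19 over the 36. Differently numbered arrays ran from -0.29 to 0.25 over all genes. With so few arrays per group, these values cannot decide whether the numbers pair the arrays. Array weights gave unstimulated replicate 2 the lowest weight, 0.46. Signal over background is unknown for every gene, and a change near 0 may be that of a gene not detected in either group.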
